A study of Homo sapiens with 22 samples.

Results

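The small nucleolar RNA host genes, with the nuclear long non-coding RNAs MALAT1 and NEAT1, were followed across genotype and day in HUDEP-2 cells, an immortalized human erythroid line. Members were taken by name alone, as every gene name made of SNHG and a number, with GAS5, EPB41L4A-AS1, ZFAS1, TAF1D, MALAT1 and NEAT1, which gave 34 of 59087 names in each of 2 raw count tables, 28 of them SNHG names. The first table holds the H2A.X experiment, with 2 libraries of WT cells and 3 of H2A.X KO cells at each of day 0 (D0) and day 6 (D6) of differentiation. The second holds the BAZ1B experiment, with 3 WT and 3 BAZ1B KO libraries at each day. The comparisons ask how loss of the histone variant H2A.X, or of BAZ1B, a kinase of H2A.X, alters expression before and during erythroid maturation. All cells carry the immortalizing transgene of the line, which doxycycline keeps on, and 1 protocol is given for WT and KO: expansion medium before D0, with SCF, EPO, dexamethasone and doxycycline, and differentiation medium with plasma, heparin, holo-transferrin, insulin, SCF, EPO and doxycycline after it. The KO cells are subclones grown out by limiting dilution after delivery of Cas9 and a pair of guides, so that each is 1 clone. The KO count columns are named KO1 to KO3, as the paper names its KO subclones, while the sample titles give only replicate numbers. The study calls its WT lines subclones as well, handled as the KO lines were, but no label ties a WT library to a subclone or culture. The p-values therefore measure the spread between these libraries, which may be technical.

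Small nucleolar RNAs guide the chemical modification of ribosomal RNA: C/D box RNAs direct methylation of the ribose, and H/ACA box RNAs direct the conversion of uridine to pseudouridine. Small Cajal body RNAs (scaRNAs) do the same for spliceosomal RNA. In human cells most of these guides are cut out of the introns of a host gene, and the spliced exons of a non-coding host are often short-lived, because their reading frames end early and bring on nonsense-mediated decay. Many hosts belong to the 5′ terminal oligopyrimidine class, whose transcripts start with a C followed by a run of pyrimidines and whose translation follows growth signals. MALAT1 marks nuclear speckles and NEAT1 builds paraspeckles. Neither is a host of a guide RNA, and both are included as nuclear non-coding RNAs.

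RefSeq places 158 snoRNAs or scaRNAs inside the spans of 31 of the 34 members, with 84 in SNHG14, 11 in GAS5, 9 in SNHG1 and 8 in TAF1D. SNHG27, MALAT1 and NEAT1 hold none. The guide RNAs of a pair of abundant hosts are printed from GRCh38, 5′ to 3′, to show what the introns carry, with the C box (TGATGA) and the last D box (CTGA) in capitals.
SNORD44 in GAS5 (chr1:173865968-173866028, minus strand): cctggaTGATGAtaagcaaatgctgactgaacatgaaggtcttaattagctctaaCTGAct
SNORD49A in SNHG29 (chr17:16440036-16440106, plus strand): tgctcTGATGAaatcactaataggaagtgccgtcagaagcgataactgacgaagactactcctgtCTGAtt
The H/ACA guides of SNHG15 and EPB41L4A-AS1 have an ACA triplet before their 3′ end, which stands in capitals here.
SNORA9 in SNHG15 (chr7:44985378-44985510, minus strand): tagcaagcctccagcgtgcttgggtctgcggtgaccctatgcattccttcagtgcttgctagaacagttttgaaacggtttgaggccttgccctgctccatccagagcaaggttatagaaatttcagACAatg
SNORA13 in EPB41L4A-AS1 (chr5:112161485-112161617, plus strand): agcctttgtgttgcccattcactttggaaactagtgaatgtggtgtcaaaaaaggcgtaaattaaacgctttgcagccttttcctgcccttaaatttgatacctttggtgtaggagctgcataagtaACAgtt
The libraries were made from poly(A) RNA, and such guides themselves were hardly counted: between 51 and 357 reads per library fell on all of their gene names together. The reason for these low counts was not tested. What is followed below is therefore the reads counted on the host gene, not its guides.

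A single RefSeq start site per gene was searched for the pyrimidine tract of this gene class. For SNHG12 and ZFAS1 that start lay inside the RefSeq span of the gene, not at its outer end. A tract was sought on the transcribed strand as a C followed by at least 4 C or T, beginning within 5 bases of the start. It was present in 11 of the 24 tested guide RNA hosts with a promoter entry (45.8%), against 5749 of 27305 genes (21.1%), a description without a test. The windows below (GRCh38.p14, transcribed strand) show 10 bases before the start and 20 from it, with the tract in capitals, for 8 hosts whose levels are described further on.
SNHG12 (chr1:28581854-28581883, minus strand): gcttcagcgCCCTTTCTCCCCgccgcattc
SNHG4 (chr5:139274091-139274120, plus strand): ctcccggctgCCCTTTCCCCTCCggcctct
TAF1D (chr11:93741476-93741505, minus strand): aatagccaaCCCTTTTCTTCCgcacggttg
SNHG32 (chr6:31834906-31834935, plus strand): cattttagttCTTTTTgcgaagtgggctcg
SNHG5 (chr6:85678714-85678743, minus strand): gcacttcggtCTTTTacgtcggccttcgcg
SNHG19 (chr16:2155339-2155368, minus strand): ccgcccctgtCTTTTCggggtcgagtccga
ZFAS1 (chr20:49278632-49278661, plus strand): gccattcgttCTTTCgcgtctgcggtgccc
SNHG8 (chr4:118278752-118278781, plus strand): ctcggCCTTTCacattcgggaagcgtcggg
No such run began within 5 bases of the RefSeq start of GAS5, SNHG29, SNHG1 and SNHG10, among others, which says nothing of starts elsewhere.

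Total counts per library ranged from 11910141 to 21013004 in the H2A.X experiment and from 33199408 to 41273244 in the BAZ1B experiment, so low members are measured more firmly in the second. H2AFX, the gene of H2A.X under its older symbol, had 89.7 to 136 CPM (reads per gene relative to the library's total, scaled by the TMM method) in the WT libraries of the H2A.X experiment and 17.5 to 59.8 CPM in H2A.X KO. BAZ1B mRNA had 242 to 264 CPM in WT and 174 to 222 CPM in KO of the BAZ1B experiment, but 81.7 to 122 CPM in H2A.X WT and 167 to 283 CPM in H2A.X KO. Erythroid markers were counted in every library, and lymphocyte markers summed to at most 1.43 CPM. Mast cell and eosinophil markers summed to 104 to 140 CPM in H2A.X WT and 209 to 419 CPM in H2A.X KO at D0, and to 145 to 232 and 3.08 to 13.5 CPM at D6, with CMA1, PRG3, CLC, RNASE2 and RNASE3 at 0 reads in every library of that experiment. The 10 erythroid markers summed to 22970 to 30420 CPM in H2A.X WT and 12410 to 16190 CPM in H2A.X KO at D0, and to 35280 to 57320 and 41940 to 68960 CPM at D6, where the groups overlapped. Megakaryocyte markers summed to 8.72 to 9.67 CPM in H2A.X WT and 32.7 to 75.7 CPM in H2A.X KO at D0, and to 3.57 to 7.93 and 2.09 to 4.84 CPM at D6. The part of these differences in the results on the members was not tested. In bulk RNA, fewer cells of a type and less RNA per cell cannot be told apart. Column names with the word Redo belong to 5 of 6 libraries of H2A.X KO (not to replicate 3 of D6) and to none of WT, so at D0 this mark and the genotype cannot be told apart.

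Of the 34 members, 30 passed the filter on low counts in the H2A.X experiment and 29 in the BAZ1B experiment, the difference being SNHG22. SNHG18, SNHG27 and SNHG28 had 0 reads in all 22 libraries, which allows up to 3 reads in a library, or 0.252 CPM in the shallowest. SNHG31 had at most 13 reads in any library. Together the members took 0.166% to 0.207% of all counts in the BAZ1B experiment, 0.345% to 0.612% in H2A.X WT and 0.182% to 0.305% in H2A.X KO. Every H2A.X KO library lay below every WT library of that experiment in this share.

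Per kilobase of transcript, SNHG29, which carries the SNORD49 and SNORD65 guides, was the most abundant member in both experiments, with 570 ± 8.98 RPKM (SD, n = 3) in BAZ1B WT at D0 and 1145 ± 373 RPKM (n = 2) in H2A.X WT at D0. It was followed in BAZ1B WT by SNHG5 (213 ± 4.97 RPKM), GAS5 (201 ± 4.81), SNHG6 (124 ± 4.24) and SNHG8 (91.7 ± 2.98), and the same 5 genes led in H2A.X WT in the same order. SNHG17, SNHG1, SNHG4 and TAF1D came next in BAZ1B WT at 43.2 to 45.1 RPKM, and neighbours among these 4 differed by less than their SDs, as did MALAT1 (24.9 ± 1.05), EPB41L4A-AS1 (24.8 ± 0.476) and SNHG16 (24.5 ± 0.7001). The WT means of SNHG21 and SNHG22 at D0 were below 1 RPKM in both, and that of SNHG31, which was not tested, lay lower still. In H2A.X WT at D6, SNHG21 and SNHG22 had means of 1.37 and 1.99 RPKM. In H2A.X WT the SD of SNHG5 was 214.5 RPKM around 493 RPKM, so the order of SNHG5, GAS5 (408 ± 59.9) and SNHG6 (355 ± 138) is not resolved there. RPKM used the median length of a gene's annotated transcripts, which makes such comparisons between genes approximate.

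**Figure D1:**
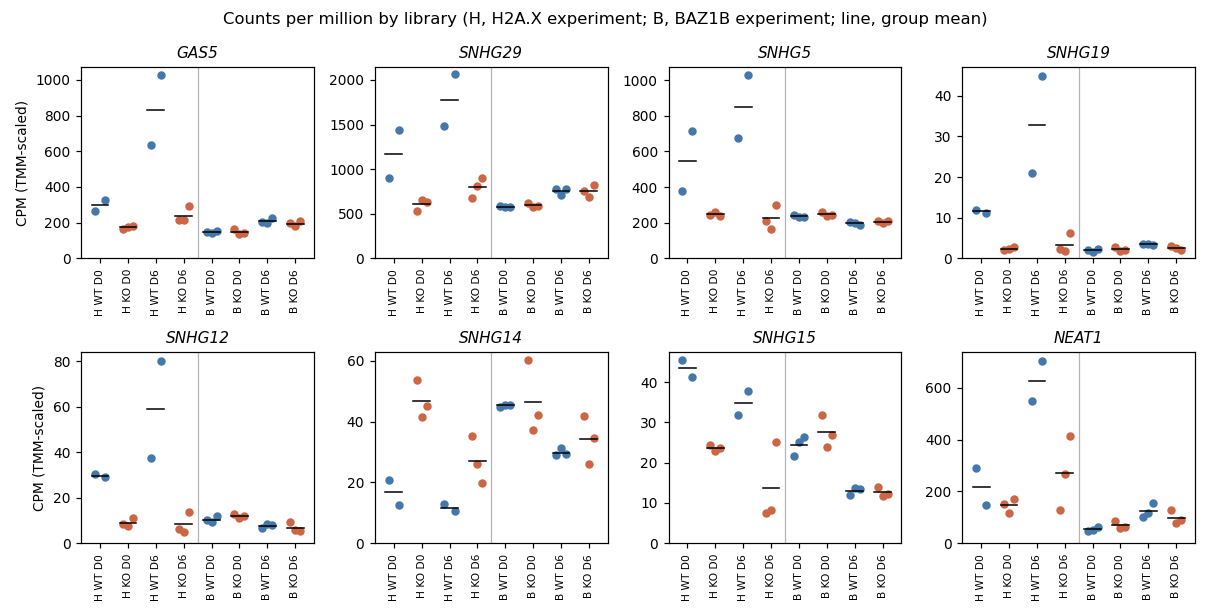
TMM-scaled CPM (linear axes from 0) of 8 members in each library, blue for WT and orange for KO, with a line at each group mean. GAS5, SNHG29, SNHG5, SNHG19 and SNHG12 lie higher in the H2A.X WT libraries than in the H2A.X KO libraries of the same day and in all BAZ1B-experiment libraries, whereas SNHG14 lies lower there.

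H2A.X KO cells held less of most host transcripts than WT cells at D0. With edgeR's quasi-likelihood test, 19 of the 30 tested members were lower and 1 was higher in KO at an adjusted p below 0.05, while 16.7% of the 13236 tested genes were lower and 18.4% were higher. The median log2 fold change over the 30 members was -1.23, against 0.013 over all tested genes. In 25 members every KO library lay below both WT libraries, a pattern that 34.1% of all tested genes showed.

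SNHG19, host of SNORD60, had 11.9 and 11.2 CPM in WT and 2.02, 2.25 and 2.81 CPM in KO at D0. Its log2 fold change was -2.29 ± 0.48 (adjusted p = 0.00928), the lowest of the members. SNHG16, host of the SNORD1 guides, had 144 and 259 CPM in WT and 53.3, 67.1 and 59.1 CPM in KO. The groups of both genes were well apart, although the WT libraries of SNHG16 differed widely from each other, and the log2 fold change of SNHG16 was -1.75 ± 0.28 (adjusted p = 0.00491). SNHG12, whose introns hold 3 H/ACA guides and SNORD99, had 30.3 and 29.2 CPM in WT and 8.33, 7.67 and 11.05 CPM in KO, a log2 fold change of -1.72 ± 0.41 (adjusted p = 0.0129).

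GAS5, a host of 10 C/D box guides known for accumulating in growth-arrested cells, had 267 and 329 CPM in WT and 167, 178 and 184 CPM in KO at D0. All KO values were lower, and the log2 fold change was -0.76 ± 0.22 (adjusted p = 0.0247). ZFAS1, host of the SNORD12 guides, had 31.7 and 52.3 CPM in WT and 15.2, 18.6 and 16.5 CPM in KO, with a log2 fold change of -1.32 ± 0.28 (adjusted p = 0.00917). EPB41L4A-AS1, host of SNORA13, had 38.3 and 48.6 CPM in WT and 15.1, 19.2 and 18.6 CPM in KO, with a log2 fold change of -1.30 ± 0.23 (adjusted p = 0.0065). In neither gene did the groups overlap.

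TAF1D, the one member that encodes a protein, a subunit of the RNA polymerase I selectivity factor, changed least among the members that were lower. It had 114 and 119 CPM in WT and 73.6, 76.8 and 73.3 CPM in KO, and a log2 fold change of -0.65 ± 0.21 (adjusted p = 0.04). The other members that passed the test at D0 were SNHG9 (-1.87), SNHG10 (-1.55), SNHG7 (-1.53), SNHG6 (-1.45), SNHG11 (-1.40), SNHG1 (-1.40), SNHG8 (-1.37), SNHG25 (-1.33), SNHG17 (-1.15), SNHG5 (-1.14), SNHG29 (-0.95) and SNHG30 (-0.91), as log2 fold changes.

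SNHG14 ran the other way. It is a long transcript of the imprinted Prader-Willi region and carries the SNORD115 and SNORD116 clusters, and it overlaps SNRPN on the same strand, so reads of both may be mixed. It had 20.7 and 12.7 CPM in WT and 53.7, 41.4 and 45.03 CPM in KO at D0, with every KO library higher, and its log2 fold change was 1.48 ± 0.28 (adjusted p = 0.00757). Neither nuclear RNA passed the test at D0: MALAT1 had 107 and 56.6 CPM in WT and 80.2, 82.5 and 98.4 CPM in KO (log2 fold change 0.09 ± 0.37 (adjusted p = 0.867)). NEAT1 had 289.6 and 147 CPM in WT and 151, 118 and 171 CPM in KO (log2 fold change -0.57 ± 0.42 (adjusted p = 0.299)), so its groups overlapped.

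At D6, 24 of the 30 members were lower in H2A.X KO and 1, SNHG14, was higher, against 20.9% of all tested genes lower and 22.2% higher. The median log2 fold change of the members was -1.39, and 26 members had every KO library below both WT libraries, as did 32.3% of all tested genes. GAS5 had 635 and 1025 CPM in WT and 213, 213 and 294 CPM in KO, a log2 fold change of -1.79 ± 0.22 (adjusted p = 0.00226). SNHG5, host of the SNORD50 guides, had 675 and 1027 CPM in WT and 211, 165 and 299 CPM in KO, a log2 fold change of -1.92 ± 0.30 (adjusted p = 0.00358). SNHG29 had 1488 and 2063 CPM in WT and 676, 813 and 898 CPM in KO, a log2 fold change of -1.16 ± 0.23 (adjusted p = 0.00495). In these 3 abundant hosts the second WT library was the highest of all, and KO replicate 3 was the highest of the KO libraries.

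Among the members with moderate counts, SNHG19 had 21.1 and 44.8 CPM in WT and 2.25, 1.79 and 6.15 CPM in KO at D6, with a log2 fold change of -3.27 ± 0.48 (adjusted p = 0.00335). SNHG12 had 37.5 and 80.2 CPM in WT and 6.48, 5.09 and 13.96 CPM in KO, with -2.79 ± 0.42 (adjusted p = 0.00346). SNHG8, host of SNORA24, had 203 and 339 CPM in WT and 48.7, 49.5 and 73.1 CPM in KO, with -2.25 ± 0.26 (adjusted p = 0.00178). None of these groups overlapped. SNHG25, a very short host of SNORD104, had 4.49 and 12.7 CPM in WT and 0.889, 0.866 and 0.989 CPM in KO (log2 fold change -3.21 ± 0.43 (adjusted p = 0.00308)).

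SNHG21 and SNHG22 also passed the test at D6, on few reads. SNHG22, host of SCARNA17, had 9 and 20 reads in WT and 2, 1 and 1 reads in KO. SNHG21, host of SCARNA15, had 8 and 13 reads in WT and 0, 0 and 5 in KO. Their fitted folds rest on these counts and are not given as sizes. Both genes met the filter on low counts only through WT libraries, so their selection favoured a lower KO value. Neither call is support for a fall, although both genes count among the 24 lower and the 26 non-overlapping members at D6. SNHG22 also counts among the 25 non-overlapping members at D0.

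EPB41L4A-AS1 (-1.80), ZFAS1 (-1.86) and TAF1D (-1.17) were lower again, as log2 fold changes at D6, and so were SNHG1, SNHG6, SNHG7, SNHG9, SNHG11, SNHG16, SNHG17 and SNHG30, between -1.97 and -1.04. SNHG10 missed the threshold at D6, with 15.8 and 18.8 CPM in WT and 3.76, 7.36 and 13.5 CPM in KO at D6 (-1.08 ± 0.41 (adjusted p = 0.0577)). SNHG3 and SNHG15, both hosts of H/ACA guides, and SNHG32, a C/D box host, passed at D6 but not at D0. SNHG3 had 70.7 and 104 CPM in WT and 15.002, 13.8 and 48.4 CPM in KO, where only KO replicate 3 came near the WT range, and SNHG15 had 31.9 and 37.9 CPM in WT and 7.63, 8.22 and 25.2 CPM in KO. NEAT1 had 549 and 704 CPM in WT and 129.9, 266 and 413 CPM in KO, without overlap but with a wide spread in KO (log2 fold change -1.22 ± 0.41 (adjusted p = 0.037)). MALAT1, at 109.96 and 271 CPM in WT and 77.2, 123 and 93.6 CPM in KO, missed the threshold (-0.96 ± 0.36 (adjusted p = 0.0558)). SNHG14 had 12.8 and 10.6 CPM in WT and 35.4, 26.1 and 19.9 CPM in KO, higher in every KO library, with a log2 fold change of 1.21 ± 0.29 (adjusted p = 0.00869).

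**Figure D2:**
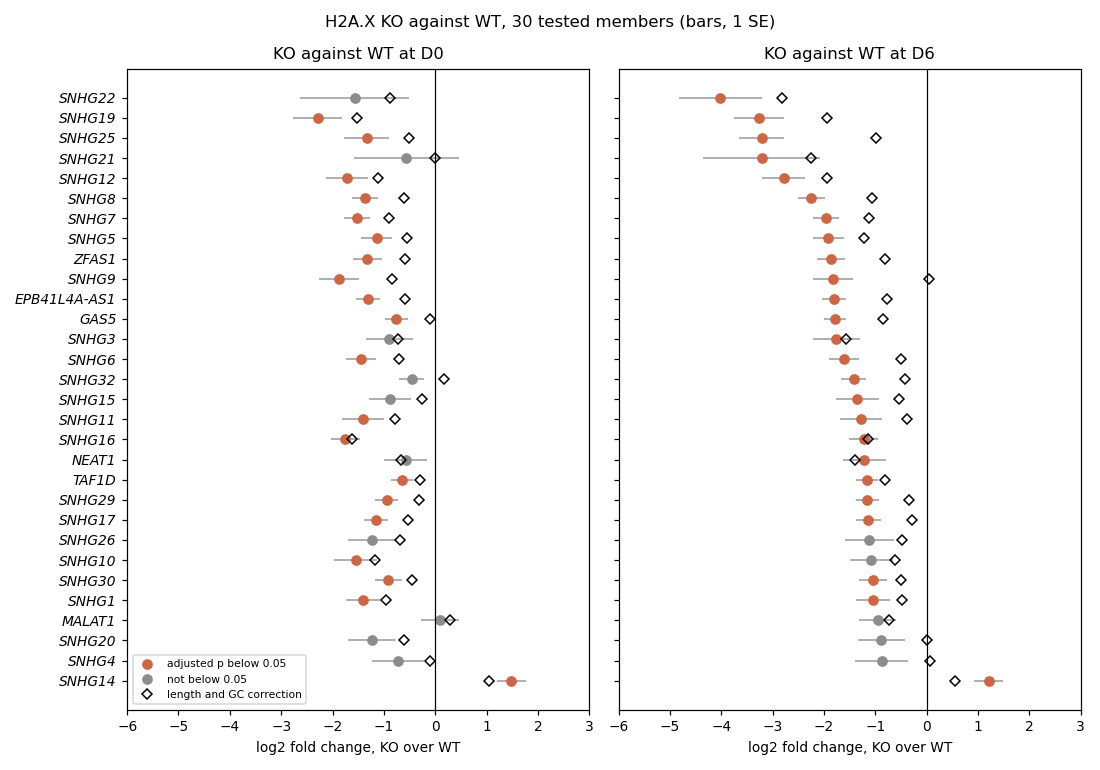
Log2 fold change of H2A.X KO over WT for the 30 tested members at D0 (left) and D6 (right), with bars of 1 standard error, filled orange where the adjusted p was below 0.05, and open diamonds for the value after a correction for transcript length and GC content. Nearly all points lie left of 0 and SNHG14 lies right of it, and most diamonds lie nearer to 0.

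Transcript length moved with this comparison. The tested members had a median transcript length of 1062 bases against 3079 over all tested genes with a length, and across 12010 genes the log2 fold change of H2A.X KO over WT rose with length (Spearman's rho, D0 0.547, D6 0.607). After each library was corrected for length and GC content, 7 members were lower and 1 was higher at D0 (median log2 fold change -0.59), against 10.5% of all tested genes in each direction. At D6, 13 were lower and 0 higher, with a median of -0.76, against 10.1% and 10.3% of all tested genes. Those still lower on both days were SNHG7, SNHG8, SNHG16, SNHG19, EPB41L4A-AS1 and ZFAS1. GAS5 was at -0.10 (adjusted p = 0.64) at D0 and -0.85 (adjusted p = 0.00939) at D6 after the correction, and SNHG29 no longer passed at either day (-0.32 and -0.34). SNHG14 was 1.04 (adjusted p = 0.0122) at D0 and 0.55 (adjusted p = 0.0915) at D6.

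Single libraries also weighed on the counts of calls. The median member stood at 42.0%, 44.2% and 45.1% of its WT mean in the 3 KO libraries at D0, and at 24.4%, 28.6% and 49.8% in KO replicates 1, 2 and 3 at D6, replicate 3 being the one without the Redo mark. With KO replicate 3 alone standing for KO at D6, a lone library that the fit assumes to vary like the other groups, 8 members were lower and 0 higher, against 2.3% and 2.93% of all tested genes, and 28 of 30 members were negative, their median log2 fold change being -0.99. Those 8 were GAS5 (-1.49), SNHG7, SNHG8, SNHG12, SNHG19, SNHG25, EPB41L4A-AS1 and ZFAS1. With the length and GC correction as well, SNHG8 alone passed, at -0.85, and the median was -0.54, against 0.636% of all tested genes lower and 0.783% higher. Without WT replicate 2 at D0 the count of calls at D0 went from 20 to 0, against 0.551% of all tested genes called, with a median of -1.11 and 29 of 30 members negative. Without KO replicate 1, replicate 2 or replicate 3 at D0 it was 14, 16 and 13, against 19.5%, 22.4% and 20.8% of all tested genes. Without WT replicate 2 at D6 it went from 25 to 5 at D6, against 1.1% of all tested genes, with a median of -1.14. A WT arm left with 1 library is likewise assumed to vary like the other groups.

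**Figure D3:**
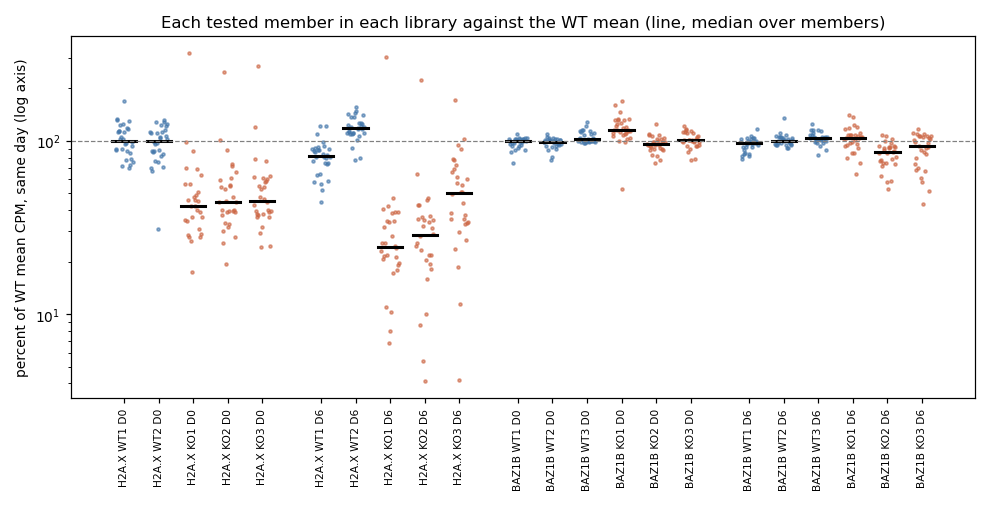
Each tested member in each library as a percent of the mean of the WT libraries of the same experiment and day (log axis), with a line at the median over members. The median line of H2A.X KO lies at 42.0% to 45.1% at D0 and at 24.4% to 49.8% at D6, while in BAZ1B KO it lies between 86.4% and 115%.

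The WT cells of the 2 experiments also stood apart in these RNAs. For the 29 members tested in both, the mean CPM of H2A.X WT was a median of 2.06 times that of BAZ1B WT at D0 and 3.07 times at D6, with 25 and 26 members above 1.5-fold. The H2A.X KO cells stood at a median of 0.993 and 1.05 times the BAZ1B WT level, with 26 and 24 members within 1.5-fold. For example, GAS5 had 298 ± 43.8 CPM (SD, n = 2) in H2A.X WT, 176 ± 8.37 (n = 3) in H2A.X KO and 147 ± 3.51 (n = 3) in BAZ1B WT at D0. SNHG5 had 545 ± 237, 248 ± 9.27 and 235 ± 5.49 CPM in the same groups, SNHG19 had 11.6 ± 0.477, 2.36 ± 0.405 and 1.94 ± 0.417 CPM, and SNHG14 had 16.7 ± 5.602, 46.7 ± 6.28 and 45.3 ± 0.315 CPM. The 2 tables were made and normalized apart, so these values stand side by side without a test. The same ratios were not computed over all tested genes, so they do not show a trait particular to these RNAs.

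**Figure D4:**
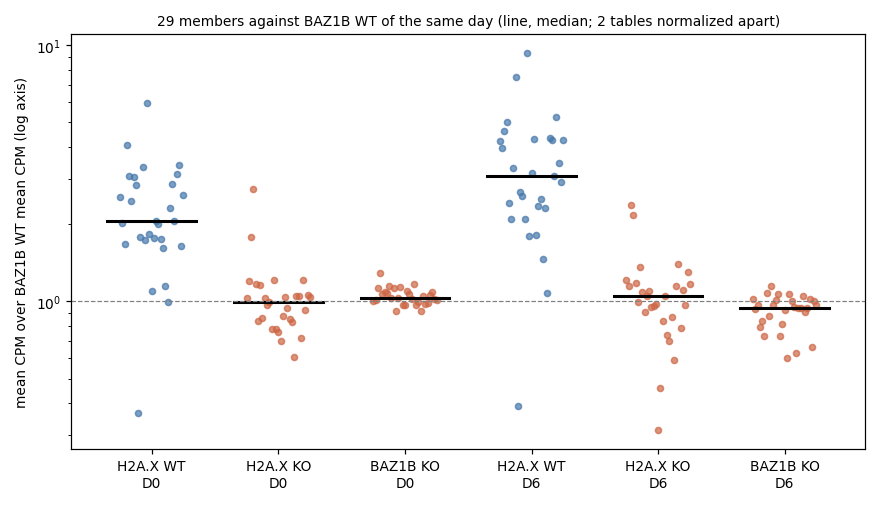
Mean CPM of each of 29 members in H2A.X WT, H2A.X KO and BAZ1B KO divided by its mean CPM in BAZ1B WT of the same day (log axis), with a line at the median. H2A.X WT lies at medians of 2.06 and 3.07, and H2A.X KO at 0.993 and 1.05.

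After loss of BAZ1B few of these RNAs differed from WT by more than the spread between libraries. At D0 no member passed edgeR's test, against 3.88% of 13879 tested genes, 2 had an unadjusted p below 0.05, and DESeq2 called 0 as well. The log2 fold changes at D0 ran from -0.12 to 0.38 with a median of 0.05. KO replicate 1 stood above the other KO libraries, with the median member at 115% of the WT mean and 26 of 29 members above it. SNHG14 had 44.9, 45.4 and 45.5 CPM in WT and 60.2, 37.2 and 42.1 CPM in KO, and GAS5 had 146, 144 and 151 CPM in WT and 162, 139 and 145 CPM in KO, in both genes with overlapping groups. In SNHG3 and MALAT1 every KO library lay above every WT library, as in 9.76% of all tested genes, and in no member did every KO library lie below, as in 12.7%.

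At D6, 2 members were lower in BAZ1B KO and none was higher, against 12.8% of all tested genes called in either direction. SNHG30, host of SNORD7, had 4.46, 4.22 and 5.31 CPM in WT and 2.98, 2.72 and 3.12 CPM in KO, with a log2 fold change of -0.67 ± 0.13 (adjusted p = 0.00513). SNHG10, host of SCARNA13, had 7.22, 7.92 and 9.52 CPM in WT and 6.54, 5.899 and 5.599 CPM in KO, with -0.45 ± 0.13 (adjusted p = 0.0429). In both, all KO libraries lay below all WT libraries, as they did in SNHG6, SNHG9, SNHG19 and SNHG25, which did not pass, and in 15.2% of all tested genes. In SNHG17, which did not pass either, all lay above, as in 15.7% of all tested genes. At D0 the groups of SNHG30 and SNHG10 overlapped, with 4.91, 4.86 and 5.91 CPM in WT and 5.14, 4.93 and 5.18 CPM in KO for SNHG30. The call of SNHG10 did not hold with the libraries of D6 alone, nor, among others, without WT replicate 3 at D6, where its log2 fold change was -0.34. The most abundant hosts had narrow estimates at D6, as log2 fold changes with their standard errors, and none passed. These were SNHG29 0.00 ± 0.06, SNHG5 0.07 ± 0.04, GAS5 -0.10 ± 0.07, SNHG6 -0.135 ± 0.049 and SNHG8 0.03 ± 0.07. Among less abundant hosts, TAF1D was at 0.00 ± 0.05 and EPB41L4A-AS1 at 0.03 ± 0.08.

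Between D0 and D6 some host transcripts rose and others fell. In BAZ1B-experiment WT cells, 11 of 29 members rose and 8 fell, while 33.5% of all tested genes rose and 35.4% fell, so the members were called about as often as other genes. Over the same days the erythroid markers went from 6701 to 7401 CPM in sum to 36230 to 41160 CPM, the mast cell and eosinophil markers from 467 to 508 CPM to 29.99 to 40.8 CPM, and the megakaryocyte markers from 72.3 to 75.5 CPM to 8.44 to 10.4 CPM. The part of these shifts in the changes of the members was not tested. The largest rise was that of NEAT1, from 46.03, 53.2 and 60.97 CPM at D0 to 101, 118 and 155 CPM at D6, a log2 fold change of 1.22 ± 0.20 (adjusted p = 0.000145). MALAT1, its neighbour on chromosome 11, went from 46.5, 48.9 and 50.6 to 32.1, 43.5 and 47.6 CPM and did not pass (-0.24 ± 0.14 (adjusted p = 0.139)).

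Among the C/D box hosts that rose, GAS5 had 146, 144 and 151 CPM at D0 and 205, 198 and 225 CPM at D6, a log2 fold change of 0.51 ± 0.07 (adjusted p = 2.31e-05). SNHG16 had 61.9, 60.6 and 58.5 CPM and then 85.2, 79.8 and 82.2 CPM (0.45 ± 0.05 (adjusted p = 7.97e-06)). SNHG29 had 591, 577 and 574 CPM and then 772, 715 and 776 CPM (0.38 ± 0.06 (adjusted p = 8.72e-05)). The 3 libraries of a day lay close together in these genes and the days did not overlap. SNHG19 (0.86), SNHG1 (0.53), SNHG6 (0.39), ZFAS1 (0.36) and SNHG32 (0.33) rose too, as did the scaRNA host SNHG10 (0.97) and the H/ACA host SNHG8 (0.20), all as log2 fold changes.

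The largest fall was that of SNHG15, host of SNORA9, from 21.6, 25.1 and 26.5 CPM at D0 to 12.03, 13.6 and 13.5 CPM at D6, a log2 fold change of -0.90 ± 0.12 (adjusted p = 1.28e-05). SNHG4, host of the SNORA74 guides, overlaps MATR3 on the same strand and went from 29.4, 30.4 and 29.5 to 15.9, 16.6 and 16.4 CPM (-0.87 ± 0.17 (adjusted p = 0.000547)). SNHG3, host of the SNORA73 guides, overlaps RCC1 on the same strand and went from 47.5, 49.9 and 48.2 to 31.8, 37.3 and 35.2 CPM (-0.48 ± 0.09 (adjusted p = 0.000464)). In each of them every D6 library lay below every D0 library. SNHG14 (-0.60), SNHG26 (-0.51), TAF1D (-0.33), SNHG5 (-0.27) and SNHG17 (-0.26) also fell. EPB41L4A-AS1 had 17.3, 16.7 and 17.1 CPM at D0 and 15.7, 14.7 and 15.9 CPM at D6 and did not pass (-0.14 ± 0.07 (adjusted p = 0.115)).

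The members were also grouped by the kind of guide RNA in their introns, a grouping made after the values had been seen and therefore not tested. Of 13 tested hosts whose guides are mostly C/D box, 8 rose in BAZ1B-experiment WT cells and 3 fell (SNHG5, SNHG14 and SNHG26), with a median log2 fold change of 0.38. Of 11 hosts whose guides are mostly H/ACA box, 1 rose (SNHG8) and 5 fell (SNHG3, SNHG4, SNHG15, SNHG17 and TAF1D), with a median of -0.26. In BAZ1B KO cells, 6 of the C/D box hosts rose and 4 fell, with a median of 0.23, and 0 of the H/ACA hosts rose and 6 fell, with a median of -0.26. These counts stand beside 33.5% of all tested genes rising and 35.4% falling in WT, and 33.2% and 34.5% in KO. In the H2A.X experiment the medians of the same classes were 0.64 and 0.47 in WT cells and 0.40 and 0.03 in KO cells. There 10 of 13 C/D box hosts and 9 of 11 H/ACA hosts had a positive log2 fold change in WT cells, and 8 of 13 and 6 of 11 in KO cells. Most of these members were not called, so their signs do not settle whether direction followed the class. The class medians of H2A.X KO over WT were -1.23 and -1.30 at D0 and -1.42 and -1.76 at D6.

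**Figure D5:**
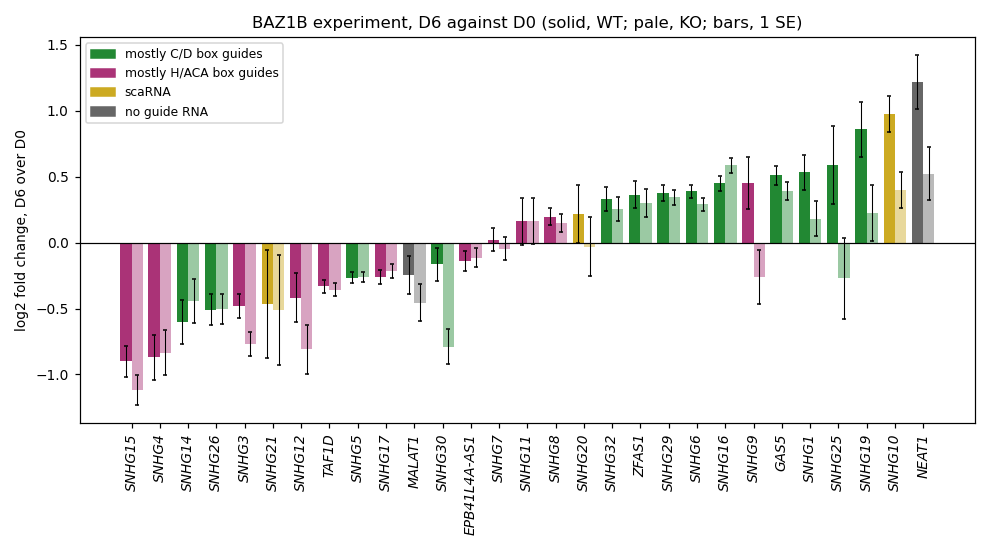
Log2 fold change of D6 over D0 in the BAZ1B experiment for 29 members, ordered by the WT value, with solid bars for WT, pale bars for KO, error bars of 1 standard error and colours for the kind of guide RNA. Green bars of C/D box hosts fill most of the right side, and purple bars of H/ACA hosts most of the left.

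In BAZ1B KO cells 8 members rose from D0 to D6 and 11 fell, against 33.2% and 34.5% of all tested genes. SNHG16 rose most, from 59.8, 54.1 and 52.2 to 79.4, 82.5 and 87.6 CPM (0.59 ± 0.05 (adjusted p = 7.23e-07)), and SNHG15 fell most, from 31.9, 23.8 and 26.9 to 14.1, 11.8 and 12.2 CPM (-1.12 ± 0.12 (adjusted p = 1.77e-06)). GAS5 (0.39), SNHG29 (0.34), ZFAS1 (0.30), SNHG6 (0.29), SNHG32 (0.26), SNHG10 (0.40) and NEAT1 (0.52) rose as well. SNHG12 (-0.81), SNHG30 (-0.79) and MALAT1 (-0.46) passed as lower here and not in WT. No member passed the test of genotype by day, in which 2.47% of all tested genes did. The members nearest to that threshold were SNHG30, at -0.62 ± 0.18 (adjusted p = 0.101), and SNHG10, at -0.58 ± 0.19 (adjusted p = 0.147), and 5 members had an unadjusted p below 0.05. DESeq2 called 0. The replicate term was fitted within both genotypes, although its numbers were taken to pair the days in KO cells but not in WT cells. With it, 5.17% of all 13879 tested genes passed, 426 as higher and 292 as lower. Of the members, 4 passed as lower. They were NEAT1 (-0.70, adjusted p = 0.000505), SNHG1 (-0.34, adjusted p = 0.0305), SNHG30 (-0.62, adjusted p = 0.042) and SNHG3 (-0.29, adjusted p = 0.047).

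In H2A.X-experiment WT cells, 2 members rose from D0 to D6 and none fell, against 2% of all tested genes called. GAS5 rose from 267 and 329 to 635 and 1025 CPM (1.48 ± 0.25 (adjusted p = 0.0275)), and SNHG32, host of SNORD48 and SNORD52, from 21.9 and 15.7 to 35.7 and 60.3 CPM (1.35 ± 0.27 (adjusted p = 0.0386)). Neither passed without WT replicate 1 or 2 of D0, WT replicate 2 of D6, or KO replicate 2 or 3 of D0, and SNHG32 did not pass with the length and GC correction (0.92, adjusted p = 0.0873). With a term for the replicate number, taken to pair the days in this experiment, 9 members rose and 0 fell. Of all 13236 tested genes 8.51% were then called, 583 rising and 544 falling. SNHG6, SNHG8, SNHG19, SNHG25, SNHG29, ZFAS1 and NEAT1 joined GAS5 and SNHG32, NEAT1 at 1.59 (adjusted p = 0.0452). Of the 30 tested members 25 had a positive log2 fold change here, among them all 11 that rose in BAZ1B-experiment WT cells. Of the 8 that fell there, 4 had a negative one here, the others being SNHG3, SNHG5, SNHG17 and TAF1D. Over the 29 members tested in both, Pearson's r between the log2 fold changes of the 2 experiments was 0.64 and Spearman's rho 0.60, across genes and between libraries that are not shared. Neither these values nor the shared signs were computed over all tested genes, so they are not read as particular to the members.

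In H2A.X KO cells, SNHG10 rose from 2.94, 3.86 and 3.75 to 3.76, 7.36 and 13.5 CPM (1.22 ± 0.39 (adjusted p = 0.0376)) and SNHG6 from 56.98, 72.2 and 73.5 to 86.5, 132 and 135 CPM (0.80 ± 0.27 (adjusted p = 0.0468)). SNHG14 fell from 53.7, 41.4 and 45.03 to 35.4, 26.1 and 19.9 CPM (-0.78 ± 0.24 (adjusted p = 0.0319)), as it did in both genotypes of the BAZ1B experiment. These 3 calls stand against 30.9% of all tested genes. The days overlapped in SNHG10. Without KO replicate 3 at D6, the library without the Redo mark, 0 members rose and 5 fell, against 36.9% of all tested genes called. The median log2 fold change of the members went from 0.161 to -0.114. With the replicate term 6 members rose (SNHG6, SNHG10, SNHG16, SNHG29, GAS5 and ZFAS1) and 4 fell (SNHG3, SNHG4, SNHG14 and SNHG15), against 18.2% and 20.3% of all tested genes. For the 29 members, Pearson's r with the maturation of BAZ1B KO cells was 0.80, and 17 of the 19 members called there had the same sign here. The matching values over all tested genes were not computed.

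The effect of H2A.X loss did not pass a test of difference between the days in any member with edgeR's test, in which 1.34% of all tested genes passed, 4 members had an unadjusted p below 0.05, and DESeq2 called 0. GAS5 was at -1.03 ± 0.32 (adjusted p = 0.156), which became -1.01 (adjusted p = 0.0315) with the replicate term, the one member then called, against 4.17% of all tested genes. Without KO replicate 3 at D6 the count was 2, against 6.45% of all tested genes.

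Proteins that bind and process guide RNAs were counted from fixed lists, to be read against the shares of all tested genes: 18.4% higher and 16.7% lower in H2A.X KO at D0, 22.2% and 20.9% at D6, and 33.5% rising and 35.4% falling in BAZ1B-experiment WT cells. The lists here and in the next paragraph were not refitted with the length and GC correction. The log2 fold change of H2A.X KO over WT rose with transcript length (Spearman's rho 0.547 at D0 and 0.607 at D6). Of 20 core and assembly proteins of the snoRNPs, 1 was higher and 9 were lower in H2A.X KO at D0 (median log2 fold change -0.45) and 3 and 10 at D6 (-0.46). TGS1 was highest on both days, and FBL, the methyltransferase of the C/D box particle, was among the lowest. In BAZ1B-experiment WT cells 2 rose (RUVBL1 and DKC1, the pseudouridine synthase) and 12 fell during maturation (-0.15), NOLC1 and NAF1 most. Of 21 nonsense-mediated decay factors, 6 were higher and 3 lower in H2A.X KO at D0, 8 and 5 at D6, with the kinase SMG1 highest on both days, and 4 rose and 10 fell in BAZ1B-experiment WT cells, with SMG1 and UPF3A lowest.

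Of 41 protein-coding genes with intronic snoRNAs, 2 were higher and 24 lower in H2A.X KO at D0 (median -0.74), and 5 and 24 at D6 (-0.72). In BAZ1B-experiment WT cells 30 of them rose and 7 fell (median 0.32), with RPL10 and RPL3 rising most and the ribosome assembly genes PPAN and WDR43 falling most. In BAZ1B KO at D0, 1 of the 41 was lower, TOMM20, against 3.88% of all tested genes called. Of 16 paraspeckle and speckle proteins, 3 were higher and 5 lower in H2A.X KO at D0, with SRRM2 and SON highest, and 3 were higher and 0 lower in BAZ1B KO at D6, among them SFPQ and SRRM1, where 12.8% of all tested genes were called.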

How the data were processed

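RNA-Seq libraries of HUDEP-2 cells (22 in all) were mapped by the authors with STAR 2.7.0f to hg38 and counted per gene with featureCounts of Subread 1.6.4, versions per the submitters' processing notes. The deposited values are raw counts without normalization, in 1 table per experiment. The paper's methods name a stranded kit and the labels an unstranded one, and the strand setting of the counting is not given in the sources used here. Annotation overlaps put 19 members on a gene of the opposite strand and 9 on one of the same strand, so reads of such pairs may be mixed.

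Counts were filtered by filterByExpr (minimum count 10, minimum total 15), normalized by TMM and tested with edgeR 4.0.16 in R 4.3.3 by the quasi-likelihood test, two-sided, with 1 coefficient per genotype and day over all libraries of 1 experiment. p-values were adjusted over all tested genes by Benjamini and Hochberg's method, and a gene was called below 0.05. Standard errors came from the F statistic. The biological coefficient of variation was 0.239 for H2A.X and 0.0865 for BAZ1B libraries. RPKM used the median length of a gene's GENCODE transcripts, or the canonical one for coding genes. Alternatives were DESeq2 1.42.0, upper-quartile normalization, no filter, no globin genes, a replicate term, the compared groups alone, a lowess correction for length and GC content (span 0.3) and leaving out each library, and, chosen after seeing the data, leaving out both D6 KO libraries marked Redo, alone or with that correction. The procedure was tested on simulated data. Intervals and limits from reads cover counting error only.

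Replicate numbers are shared between days in the labels. Deviations from the group means of same-numbered libraries of D0 and D6 correlated in the H2A.X experiment (r from 0.253 to 0.639) and in BAZ1B KO (0.146 to 0.532). In BAZ1B WT r ran from -0.00865 to 0.245. The 2 deviations of H2A.X WT mirror each other, so its 0.639 is 1 value, and an unmatched pair of BAZ1B KO reached 0.119. Between genotypes same-numbered libraries had r from 0.0985 to 0.275 in the H2A.X experiment and from -0.176 to 0.271 in the BAZ1B experiment. The numbers were taken to pair the days in H2A.X WT, H2A.X KO and BAZ1B KO. Members and lists were chosen with earlier results of these data known. Named were the 6 genes of the rule without an SNHG number and every member called in a comparison, and of each list at most the 2 called genes with the largest change in each direction.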

Additional observations from a re-analysis of the deposited data

How the results depend on the processing

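Members called, of 30 (H2A.X) or 29 (BAZ1B), moved by more than 1.5 times as follows. With the length and GC correction they were 8 and 13 for H2A.X KO against WT at D0 and D6, 1 for D6 against D0 in H2A.X WT and 5 in H2A.X KO. Without both Redo libraries of D6 they were 8 for H2A.X KO against WT at D6 and 8 for D6 against D0 in KO, and 1 and 9 with the correction as well. Without a filter on low counts they were 10 and 9 for D6 against D0 in H2A.X WT and KO, 2 for H2A.X genotype by day, and 2, 4 and 2 for BAZ1B KO against WT at D0, at D6 and genotype by day. With DESeq2 they were 7 for D6 against D0 in H2A.X WT, and with the compared groups alone 4 there and 1 for BAZ1B KO against WT at D6. With the replicate block they were 9 and 10 for D6 against D0 in H2A.X WT and KO, 1 for H2A.X genotype by day, 1 for BAZ1B KO against WT at D6 and 4 for BAZ1B genotype by day. The block moved no other count by as much. Between genotypes the numbers are only shared, and there it let SNHG10 pass in H2A.X KO at D6 (-1.47, adjusted p = 0.0101) and SNHG3 and SNHG15 at D0 (adjusted p = 0.0239 and 0.0232). The cause of these shifts was not tested.

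Leaving out each library in turn gave 0 to 24 members for H2A.X KO against WT at D0, 5 to 29 at D6, 0 to 3 for D6 against D0 in H2A.X WT, 0 to 5 in H2A.X KO and 0 to 2 for genotype by day. The low counts came without WT replicate 2 (0 at D0 and 5 at D6), and KO replicate 3 of D0 gave 13 at D0. The 2 calls of D6 against D0 in H2A.X WT went to 0 without either WT library of D0, WT replicate 2 of D6 or KO replicates 2 or 3 of D0, and to 1 without KO replicate 1 of D0. The 3 of H2A.X KO, 2 higher and 1 lower, went to 0 without any KO library of D0 or KO replicate 2 of D6. Without KO replicate 3 of D6 they became 0 higher and 5 lower. In the BAZ1B experiment it gave 0 to 1, 1 to 4, 18 to 21, 15 to 20 and 0 to 0 in the same order, with 1 without KO replicate 1 of D0 for KO against WT at D0. For KO against WT at D6 it was 4 without that library and 1 without any WT library of D0, KO replicate 3 of D0, WT replicates 2 or 3 of D6 or KO replicate 2 of D6. Where this leaves WT with 1 library, that library is assumed to vary like the other groups.

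SNHG9 in H2A.X KO against WT at D6 turned to 0.05 with the length and GC correction, and without both Redo libraries and with the correction SNHG1 turned to 0.10, SNHG9 to 0.05, SNHG11 to 0.21 and SNHG15 to 0.21. A value that passed under neither setting was not counted as turned. Upper-quartile normalization moved the median of all genes in H2A.X KO against WT at D6 from -0.006 to -0.112, and that of the members from -1.386 to -1.475. It also split the called genes of BAZ1B genotype by day into 171 higher and 163 lower, from 219 and 124. Depth limits SNHG21, SNHG22 and SNHG31, which have few reads in each library.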

Other observations

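Hosts with and without the pyrimidine tract at the RefSeq start searched moved alike in the BAZ1B experiment and, as a description without a test, less so in the other. In BAZ1B-experiment WT cells the median log2 fold change of D6 over D0 was 0.02 over 11 hosts with the tract and 0.01 over 12 without it. In H2A.X KO against WT it was -1.86 over 11 and -1.16 over 13 hosts at D6, and -1.32 and -1.23 at D0. For D6 over D0 in H2A.X WT it was 0.64 and 0.27.

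Reads on the gene names of the guide RNAs themselves numbered 118 to 357 per library in H2A.X WT and 51 to 138 in H2A.X KO, and 94 to 221 and 94 to 278 in BAZ1B WT and KO. These are raw counts in libraries made from poly(A) RNA.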
